A study of Homo sapiens with 12 samples.

Results

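The 9 genes GLP1R, GIPR, GCGR, FFAR1, ADRA2A, SSTR2, SSTR3, SSTR5 and GRM4 encode G-protein-coupled receptors that raise or lower insulin secretion. They were taken by gene symbol from the RNA table of the study, and all 9 were found among its 35337 listed genes, of which 22707 had reads. The RNA came from EndoC-βH3, a human line with beta-cell properties derived from fetal pancreas and immortalised with telomerase and SV40 large T antigen. The line also carries CreER, a recombinase that 4-hydroxy-tamoxifen (4-OHT) switches on and that then cuts the immortalising transgenes out. The senescent group had 6 libraries of cells given 4-OHT for 3 weeks, and the non-senescent group had 6 libraries of control cells in which senescence had not been induced. Each group held 2 libraries of batch A and 4 of batch B, named A1, A2 and B1 to B4 below. All came from this line, so effects of 4-OHT, of the loss of the transgenes and of senescence cannot be told apart.

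Glucose sets the basic rate of insulin release, and receptors at the beta-cell surface tune it. GLP1R, GIPR and GCGR bind the incretins GLP-1 and GIP and the islet hormone glucagon, couple to Gs and raise cyclic AMP (cAMP), which increases release at high glucose. FFAR1 (GPR40) is a receptor for long-chain fatty acids that acts through Gq and calcium. ADRA2A, the alpha-2A adrenergic receptor for adrenaline and noradrenaline, and the somatostatin receptors SSTR2, SSTR3 and SSTR5 couple to Gi/o proteins, which lower cAMP and open GIRK potassium channels. GRM4, a group III metabotropic glutamate receptor, is also coupled to Gi/o. The comparison asked which of these receptors' transcripts differed in level between senescent and non-senescent cells.

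The promoters of the 4 receptors that rose in senescent cells are shown here, so that their sequence can be read beside their response. Each runs from 250 bases before to 50 bases after the first start listed by RefSeq on GRCh38.p14, 5′ to 3′ on the strand of the gene. Capitals mark every match, on either strand, to 6 short motifs chosen after the sequences had been seen: the cAMP response element TGACGTCA, its half-site TGACG, the E-box CACGTG, the GC box GGGCGG, the TATA motif TATAAA and the MAF half-site TGCTGA. The half-site lies within the full element.
GIPR, chr19:45667971-45668270, plus strand: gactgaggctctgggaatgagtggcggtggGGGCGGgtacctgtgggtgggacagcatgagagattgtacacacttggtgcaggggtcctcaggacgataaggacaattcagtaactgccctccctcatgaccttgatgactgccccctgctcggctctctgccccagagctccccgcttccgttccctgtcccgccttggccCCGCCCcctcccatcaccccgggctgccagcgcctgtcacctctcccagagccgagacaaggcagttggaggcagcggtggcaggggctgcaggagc
ADRA2A, chr10:111076779-111077078, plus strand: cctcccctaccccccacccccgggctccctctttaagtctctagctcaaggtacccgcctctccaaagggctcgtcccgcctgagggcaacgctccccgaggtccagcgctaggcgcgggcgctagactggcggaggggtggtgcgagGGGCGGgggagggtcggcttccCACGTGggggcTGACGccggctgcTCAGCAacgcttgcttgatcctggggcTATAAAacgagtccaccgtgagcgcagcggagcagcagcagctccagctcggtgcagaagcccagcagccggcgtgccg
SSTR3, chr22:37212428-37212727, minus strand: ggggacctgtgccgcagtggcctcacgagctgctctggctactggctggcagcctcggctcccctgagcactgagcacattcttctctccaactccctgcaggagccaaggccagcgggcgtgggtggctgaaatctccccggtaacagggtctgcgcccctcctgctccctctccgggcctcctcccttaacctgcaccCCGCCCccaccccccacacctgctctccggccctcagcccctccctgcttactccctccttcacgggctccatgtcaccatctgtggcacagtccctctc
GRM4, chr6:34146038-34146337, minus strand: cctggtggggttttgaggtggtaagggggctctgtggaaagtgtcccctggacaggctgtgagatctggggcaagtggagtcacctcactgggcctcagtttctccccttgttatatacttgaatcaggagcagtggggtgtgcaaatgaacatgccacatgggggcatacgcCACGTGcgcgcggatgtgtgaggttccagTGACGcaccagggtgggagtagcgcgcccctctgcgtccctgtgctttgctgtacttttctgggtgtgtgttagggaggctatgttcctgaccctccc
The ADRA2A promoter held 5 of the 6 motifs, among them a CACGTG 80 bases and a TGACG 69 bases before the start. The GRM4 promoter shown held the same pair, at 77 and 48 bases, while a second start listed for GRM4 held none of the 6 motifs. Both GRM4 windows lie inside the gene as annotated by GENCODE, whose 5′ end is at chr6:34155622. The sequence at that end was not searched. TGACG was also in the promoters of FFAR1 and SSTR2, which did not rise when both batches were fitted together. It was in that of SSTR5 too, which had 0 reads in all 12 libraries, so that 5 of the 9 receptors held it. CACGTG is found in 7.26% and TGACG in 24.6% of 35116 promoters of this length. GIPR and SSTR3 held only GC boxes, a motif of 45.0% of promoters. The full element TGACGTCA, present in 1.85% of promoters, was found in none of the 11 promoters listed for the 9 genes. These matches describe letters in a window and are not measured binding sites.

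Values are the normalised counts of the deposited table, that is, reads per gene divided by a size factor for each library, from bulk CEL-Seq, which reads transcripts near their 3′ ends. Depth was 8873569 to 17106776 reads per library in batch A and 4672924 to 7063264 in batch B. A count of 0 therefore allows up to 3 reads, or 0.175 to 0.642 RPM depending on the library, for counting error only. Senescent libraries were the deeper ones in each batch. They had at least 13059934 reads in A and 5973370 in B, against at most 12792199 and 5746836 in non-senescent libraries. Sums of reads over a group, given below for low genes, are not scaled for this. The 12 libraries separated by batch on the first principal component (57.6% of the variance) and by group on the second (19.3%). All 12 beta-cell markers passed the filter on low values, and INS rose from 19853 ± 8849 to 99547 ± 60362 (SD, n = 6 each). Alpha- and delta-cell markers were also present, and all 6 and all 4 passed the filter. Of the alpha-cell markers TTR and LOXL4 were called higher and GCG lower (list median log2 fold change -0.04), and of the delta-cell markers RBP4 was called higher and SST, HHEX and LEPR lower (list median -0.69). RBP4 was under the fold limit without library B2 or B3 of either group (0.52 to 0.58), LEPR had an adjusted p of 0.107 without non-senescent A2 and 0.102 without senescent A1, and SST is taken up below. Summed delta-cell markers ran from 160231 to 288403 in non-senescent and from 115659 to 143213 in senescent libraries, and their part in the receptor results was not tested. The alpha-cell sum ran from 54707 to 126686 and from 160525 to 246699, most of it TTR (means 68026 and 186494), and its part was not tested either. In bulk samples fewer cells of a type and less RNA per cell cannot be told apart, and p-values measure only the spread between these libraries, which may be technical.

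Of the 9 receptors, 6 had a mean normalised count of at least 5 and were tested. GIPR, ADRA2A, SSTR3 and GRM4 rose in senescent cells, from 1.86-fold for SSTR3 to 3.57-fold for GRM4. FFAR1 and SSTR2 did not meet the criteria, and GLP1R, GCGR and SSTR5 had too few reads to test. A gene was called when limma, with batch as a term and Benjamini-Hochberg adjustment over 13847 genes, gave an adjusted p under 0.1 and a change of over 1.5-fold on the log2(normalised count + 1) scale. Among all genes tested 23.4% were called, 11.6% as higher and 11.8% as lower. None of the 6 receptors was called lower by limma, edgeR or DESeq2, while 1, SSTR2, was lower at an unadjusted p under 0.05 in each.

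**Figure D1:**
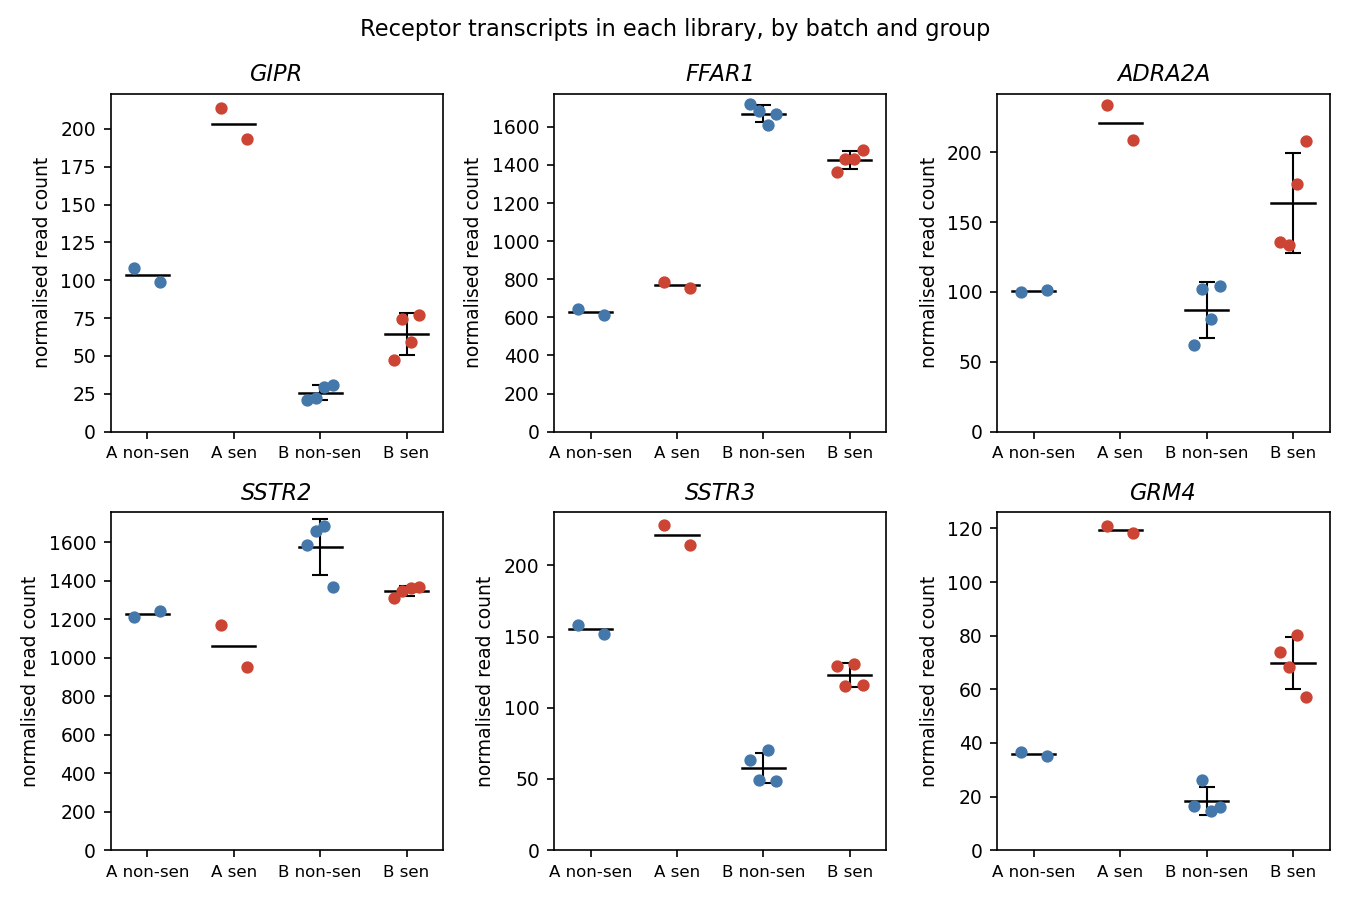
Normalised read count (y axes, linear, from 0) of the 6 tested receptors in each library, with 1 point per library, blue for non-senescent (non-sen) and red for senescent (sen), a horizontal line for the mean of a group within a batch and, in batch B (n = 4), vertical bars for ± 1 SD. In GIPR, ADRA2A, SSTR3 and GRM4 the senescent libraries lie above the non-senescent libraries of the same batch, in SSTR2 they lie below, and in FFAR1 the order is opposite in the 2 batches.

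Among the receptors that stimulate secretion, GIPR, on chromosome 19 (chr19:45668221-45683722, plus strand, 14 exons in its canonical GENCODE transcript), rose in senescent cells. Its normalised counts in non-senescent cells were 108 and 98.5 in batch A and 21.1, 22.03, 29.2 and 31.1 in batch B. In senescent cells they were 214 and 193 in batch A and 47.3, 74.5, 59.5 and 77.2 in batch B. Senescent libraries were about doubled within each batch without overlap, although the senescent libraries of batch B stayed below the non-senescent libraries of batch A. Means were 51.6 ± 40.2 and 111 ± 72.8 (SD, n = 6 each), most of that spread lying between batches. The log2 fold change was 1.18 ± 0.17 (SE; limma adjusted p = 2.48e-05), or 2.26-fold. Batch A alone gave 0.97 and batch B alone 1.28, and 23.4% and 24% of all genes were called in those fits. Fitted without the batch term, the difference kept its size but its adjusted p was 0.153. The intronic microRNA gene MIR642A lies inside GIPR on the same strand, and reads of the pair were not separated here.

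FFAR1 (chr19:35347902-35353864, plus strand, 2 exons) was abundant in every library and differed between groups in opposite directions in the 2 batches. In batch A its normalised counts were 645 and 611 in non-senescent and 783 and 754 in senescent cells. In batch B they were 1720, 1681, 1612 and 1665 in non-senescent and 1361, 1429, 1433 and 1480 in senescent cells. The groups did not overlap within either batch, with senescent libraries higher in A and lower in B. The log2 fold change was 0.29 ± 0.07 in batch A (SE; limma adjusted p = 0.0264) and -0.23 ± 0.05 in batch B (adjusted p = 0.00803), both under the 1.5-fold limit, and over both batches it was -0.05 ± 0.08 (adjusted p = 0.642). The difference between the batches was itself past the threshold, at -0.52 ± 0.11 (batch B minus batch A; adjusted p = 0.0198), as it was for 4.21% of all genes. FFAR1 was the only 1 of the 6 tested receptors for which this was so.

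GLP1R, the receptor of GLP-1 (chr6:39048781-39091303, plus strand, 13 exons), had 3 reads in all 12 libraries. A single read was found in each of the non-senescent libraries A1 and B4 and the senescent library A1. GCGR, the glucagon receptor (chr17:81804132-81814008, plus strand, 14 exons), also had 3 reads, 1 in senescent A1 and 2 in senescent B2, and 0 in the 6 non-senescent libraries. At this depth no difference was detectable for either gene. In a fit without the filter the limma adjusted p was 0.563 for GLP1R and 0.394 for GCGR.

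Among the receptors that inhibit secretion, ADRA2A (chr10:111077029-111080907, plus strand, a single exon) rose to about double its level. Non-senescent normalised counts were 100.04 and 102 in batch A and 61.7, 102, 80.4 and 104 in batch B. Senescent values were 233 and 209 in batch A and 136, 133, 177 and 208 in batch B. Every senescent library was above every non-senescent library across both batches. Means were 91.7 ± 17.1 and 183 ± 41.4 (SD, n = 6 each), a log2 fold change of 0.98 ± 0.15 (SE; limma adjusted p = 6.03e-05) or 1.97-fold. Batch A alone gave 1.12 and batch B alone 0.91.

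SSTR3 (chr22:37204237-37212477, minus strand, 2 exons), a somatostatin receptor also known for its place in primary cilia, rose as well. Non-senescent normalised counts were 158 and 152 in batch A and 63.2, 49.6, 70.1 and 48.5 in batch B. Senescent values were 228 and 214 in batch A and 130, 115, 130.5 and 116 in batch B. Groups did not overlap within a batch, and non-senescent libraries of batch A lay above senescent libraries of batch B. Means were 90.3 ± 50.9 and 156 ± 51.5 (SD, n = 6 each), and the log2 fold change was 0.90 ± 0.14 (SE; limma adjusted p = 6.05e-05), or 1.86-fold. In batch B the log2 fold change was 1.09. In batch A alone it was 0.51 with an adjusted p of 0.0119, which is under the fold limit, and the difference between batches (0.58 ± 0.25, adjusted p = 0.284) did not pass. Fitted without the batch term, SSTR3 had a limma adjusted p of 0.0966, only just under the threshold of 0.1.

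GRM4 (chr6:34018643-34155622, minus strand, 11 exons) had the largest change of the 6 tested receptors. Its normalised counts in non-senescent cells were 36.7 and 34.97 in batch A and 16.6, 26.2, 14.6 and 16.2 in batch B. In senescent cells they were 121 and 118 in batch A and 73.9, 68.2, 80.1 and 57.3 in batch B. The lowest senescent library was above the highest non-senescent library, and within batch B the non-senescent library B2 stood above its group. Means were 24.2 ± 9.91 and 86.4 ± 26.7 (SD, n = 6 each), a log2 fold change of 1.83 ± 0.18 (SE; limma adjusted p = 2.68e-07) or 3.57-fold. The response was close to that size in each batch, at 1.71 in A and 1.90 in B.

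SSTR2 (chr17:73165010-73176633, plus strand, 2 exons), a main somatostatin receptor of islet cells, had a small difference in the other direction. Its normalised counts in non-senescent cells were 1214 and 1245 in batch A and 1589, 1660.2, 1686 and 1370.4 in batch B. In senescent cells they were 1170.3 and 949.99 in batch A and 1309.99, 1349, 1363 and 1369 in batch B. Senescent libraries were the lower ones in each batch, although in batch B the highest of them nearly met the lowest non-senescent library. The log2 fold change was -0.22 ± 0.07 (SE; limma adjusted p = 0.0186), a ratio of 0.858, so that SSTR2 passed on p, as did 45.5% of all genes, but not on size. Its adjusted p was 0.328 without the batch term and 0.167 in batch A alone. A long noncoding RNA annotated on the same strand overlaps SSTR2, and reads of the pair cannot be told apart. SSTR5 (chr16:1072747-1081454, plus strand, 2 exons), the third somatostatin receptor of the set, had 0 reads in all 12 libraries.

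**Figure D2:**
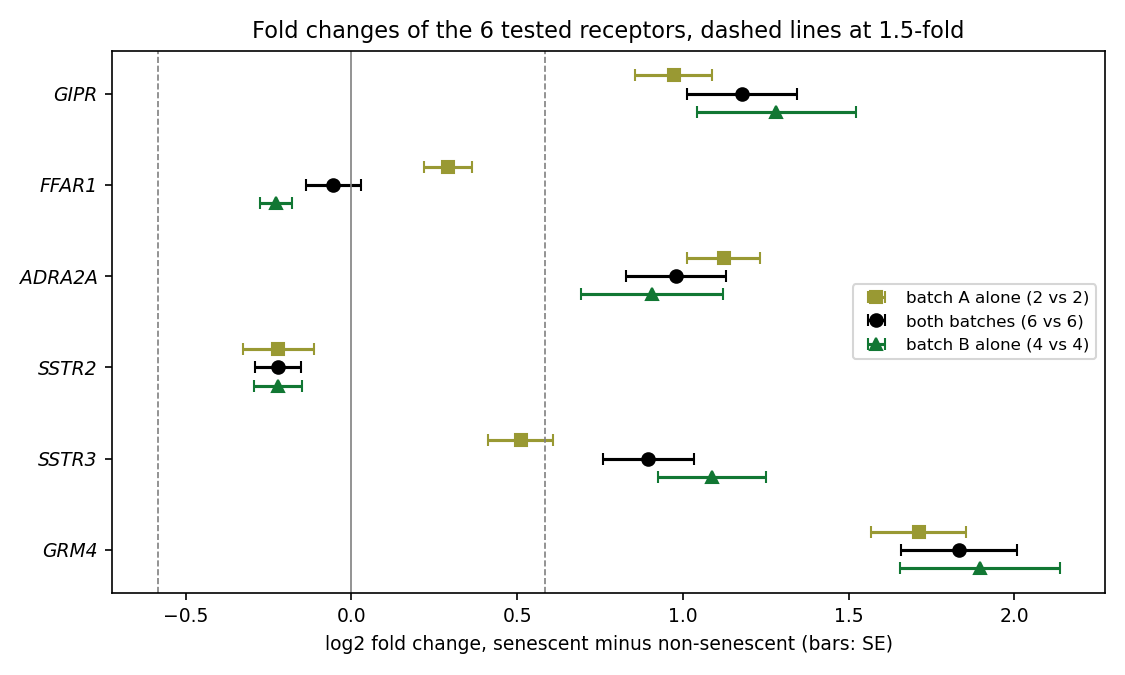
Log2 fold change (x axis, senescent minus non-senescent) of the 6 tested receptors over both batches and within batch A and batch B, with bars for ± 1 SE and lines at the 1.5-fold limit. GRM4, GIPR, ADRA2A and SSTR3 lie to the right at 0.90 to 1.83, SSTR2 sits at -0.22 in every fit shown, and FFAR1 is at 0.29 in batch A and -0.23 in batch B.

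Counted within batches, 4 receptors had every senescent library above every non-senescent library in both A and B, and 1, SSTR2, had the reverse. Of all tested genes 23.8% separated in this way, 11.9% upward and 11.9% downward. Each of the 12 fits that left out a library kept the same number of receptors called, 4, with log2 fold changes of 1.77 to 1.94 for GRM4, 1.11 to 1.26 for GIPR, 0.89 to 1.05 for ADRA2A and 0.83 to 0.96 for SSTR3. The edgeR and DESeq2 tests on whole reads recovered from the normalised counts also called 4 receptors, where 23.4% and 23.3% of all genes were called.

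Levels of GIPR, SSTR3, GRM4 and FFAR1 also differed between batches. Batch was tested as the other term of the same fit, in which 53.1% of all genes passed with the same criteria, 26.3% as higher and 26.8% as lower in batch B. GIPR was 3.53-fold, SSTR3 2.20-fold and GRM4 1.83-fold higher in batch A, whereas FFAR1 was 2.22-fold higher in batch B. ADRA2A and SSTR2 differed less, at 1.27-fold higher in A (limma adjusted p = 0.0634) and 1.28-fold higher in B (adjusted p = 4.63e-04). For GIPR the 4 conditions therefore ranked as senescent A, non-senescent A, senescent B and non-senescent B, with no overlap between neighbours. SSTR3 kept that same order without overlap. In GRM4 and ADRA2A both senescent conditions ranked above both non-senescent ones, and for ADRA2A the non-senescent libraries of A lay within the range of those of B.

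**Figure D3:**
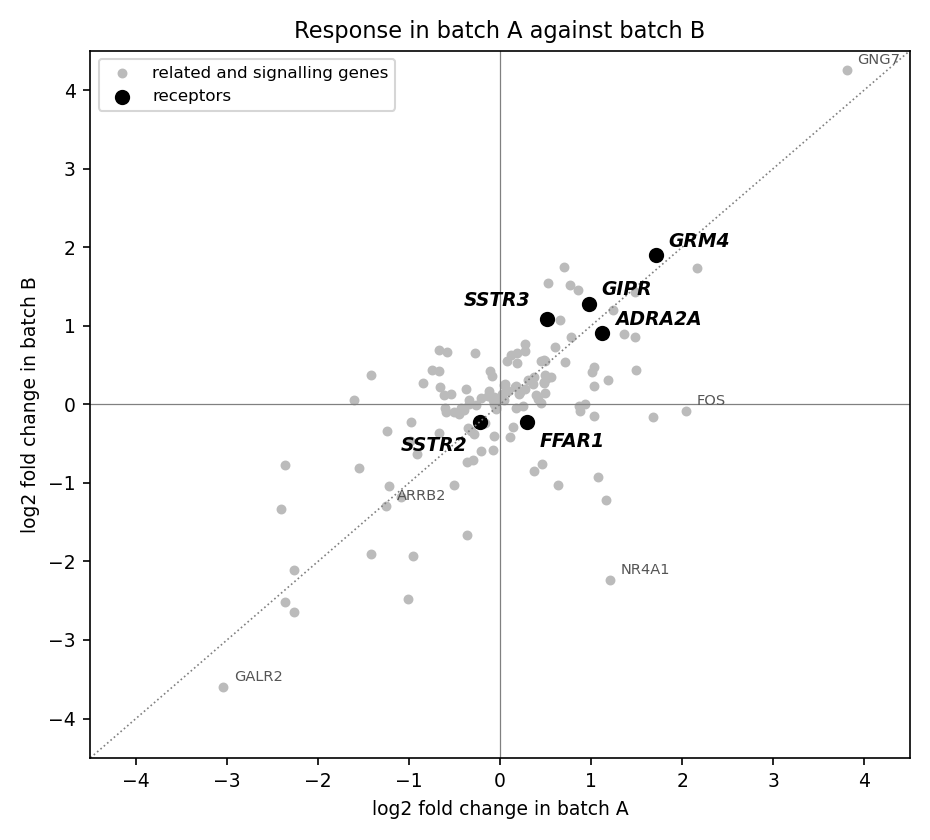
Log2 fold change (senescent minus non-senescent) in batch A (x axis) against batch B (y axis) for the 6 tested receptors (black) and 129 tested related and signalling genes (grey), with the line of equality dotted. GIPR, ADRA2A, SSTR3 and GRM4 are positive in both batches, and FFAR1 lies right of 0 at 0.29 and below 0 at -0.23.

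For each tested receptor, the 3 genes with the most similar profile were taken as those with the smallest root-mean-square difference in log2 value over the 12 libraries after centring each batch, among 11681 genes with a mean of at least 20. For GIPR these were TPRG1L, CCPG1 and MKNK1, at 0.13 to 0.17 against a median of 0.68 over all genes. For ADRA2A they were CES4A, EPHX2 and FKBP9 (about 0.17, median 0.60). For SSTR3 they were ATRX, HLA-E and KIF5C (0.11 to 0.12, median 0.55), and for GRM4 ROR2, AC026369.8 and TGFBR3 (0.17 to 0.21, median 0.97). B4GALT3, CCNI and POP5 were closest to FFAR1 (0.056 to 0.067, median 0.32). PRPF38A, SUPT16H and SMAGP were closest to SSTR2 (0.056 to 0.077, median 0.33). These distances describe the profiles only.

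Related receptors of the same families showed which other subtypes were measured. Of the remaining somatostatin receptors, SSTR1 rose and SSTR4 had 0 reads. SSTR1 ran from 31.1 to 78.9 in non-senescent and from 57.2 to 204 in senescent libraries (means 50.2 ± 18.2 and 112 ± 60.0, SD, n = 6 each), with groups separate within each batch. Its log2 fold change of 1.05 ± 0.16 (SE; limma adjusted p = 5.99e-05) lay beside 0.90 for SSTR3 and -0.22 for SSTR2. Among adrenergic receptors none of 8 relatives of ADRA2A passed the filter, and its nearest relatives ADRA2B and ADRA2C had 1 and 0 reads. Of 7 relatives of GRM4, 3 (GRM6, GRM7 and GRM8) were tested and none was called, at log2 fold changes of 0.04, 0.54 and -0.07. VIPR1, a Gs-coupled receptor for VIP and the 1 tested member of 6 relatives of the incretin and glucagon receptors, fell from 78.3 ± 24.7 to 38.2 ± 28.5 (SD, n = 6 each; log2 fold change -1.23 ± 0.29, SE; adjusted p = 0.00275). Its fall was not called in batch A alone, where the value was -0.36. FFAR2, a receptor for short-chain fatty acids, had a log2 fold change of -0.58 (adjusted p = 2.71e-04), just within the 1.5-fold limit. It was past that limit in batch B alone (-0.71), with libraries scaled to the same total (-0.68) and without non-senescent A1, A2 or B4 or senescent A1 or B4 (-0.59 to -0.65).

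Among 33 other receptors that act on islet secretion, 18 were tested, 5 were called higher and 3 lower, where 11.6% and 11.8% of all genes were, with a median log2 fold change of 0.06 beside 0.01 for all tested genes. CHRM3, the muscarinic receptor through which acetylcholine raises release, rose from 42.7 ± 32.7 to 115 ± 84.7 (SD, n = 6 each; log2 fold change 1.45 ± 0.25, SE; adjusted p = 1.82e-04). The call on CHRM3 was lost without the batch term. CASR, the calcium-sensing receptor, named after its values were seen, rose from 703 ± 87.5 to 1631 ± 182 (log2 fold change 1.22 ± 0.07, adjusted p = 5.16e-10). GALR2, a galanin receptor, fell from 119 reads over the 6 non-senescent libraries to 9 over the 6 senescent ones (log2 fold change -3.41 ± 0.39, adjusted p = 2.36e-06). TBXA2R, the thromboxane receptor, fell likewise from 64 to 9 reads (-2.52 ± 0.54, adjusted p = 0.00125). GPRC5B was at -1.61 ± 0.66 (adjusted p = 0.0621), a call that was lost without senescent B4, at -0.99 (adjusted p = 0.133). It was likewise lost without non-senescent B1, B3 or B4, at adjusted p values of 0.106, 0.153 and 0.119.

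Genes of ligands, and of enzymes that make, process or inactivate them, were compared at the RNA level only. Of 11 genes of ligands and their processing 6 were tested, 2 rose and 3 were called lower. Among all tested genes 11.6% were called higher and 11.8% lower. GCG, whose precursor gives glucagon or GLP-1, fell from 4166 ± 1208 to 2088 ± 1220 (SD, n = 6 each; log2 fold change -1.30 ± 0.19, SE; limma adjusted p = 4.21e-05). SST, the somatostatin gene, went from 206128 ± 55827 to 128684 ± 10385, with a log2 fold change of -0.64 ± 0.12 (adjusted p = 4.48e-04). This call needed batch A: without any 1 of its 4 libraries the value was -0.56 to -0.58, under the fold limit. PCSK1, which cuts proglucagon to GLP-1 and also proinsulin, fell from 661 ± 257 to 350 ± 185 (-1.06 ± 0.13, adjusted p = 3.47e-06). DPP4, the protease that inactivates GLP-1 and GIP, rose from 112 ± 81.9 to 293 ± 156 (1.40 ± 0.30, adjusted p = 0.00139). TH, which makes catecholamine precursors, rose from 7.37 ± 5.66 to 28.4 ± 24.6 (1.88 ± 0.45, adjusted p = 0.00306). Fitted without the batch term, GCG and PCSK1 were no longer called.

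Related receptors, ligands and downstream signalling genes, 194 in all, gave 129 tested genes. Of these 21 were called higher and 18 lower (30.2%, beside 23.4% of all genes). With libraries scaled to the same total, 14 were called higher and 19 lower. This pool takes in the relatives and ligands above, which are not downstream of the receptors. Among them were the 18 tested other receptors (5 higher, 3 lower) and the 6 tested ligand genes (2 higher, 3 lower). No share was computed for the downstream arms alone. Of these arms, the Gs and cAMP arm had 23 of 26 genes tested, 1 called higher and 2 lower, with a median log2 fold change of 0.06. PRKAR1A, a regulatory subunit of protein kinase A that holds the enzyme inactive without cAMP, rose from 5354 ± 2407 to 10838 ± 5643 (SD, n = 6 each; log2 fold change 0.93 ± 0.07, SE; adjusted p = 1.77e-08). ADCY3, an adenylyl cyclase, fell from 47 to 10 reads over 6 libraries (-1.99 ± 0.48, adjusted p = 0.00325). PRKAR2B was at -0.64 ± 0.27 (adjusted p = 0.0645), and its call was lost without 1 of 6 libraries (non-senescent A2 or B1, or senescent A1, A2, B2 or B3, with values of -0.48 to -0.62). Of 10 tested phosphodiesterases, which break down cAMP, 1 was called higher and 2 lower. PDE3B, the main enzyme opposing cAMP in beta cells, rose from 231 ± 93.9 to 441 ± 173 (0.90 ± 0.16, adjusted p = 2.52e-04), and PDE1A fell from 22.7 ± 5.68 to 6.97 ± 3.83 (-1.74 ± 0.35, adjusted p = 7.13e-04). PDE7A was at -0.61 ± 0.17 (adjusted p = 0.00979), under the limit without non-senescent B4 (-0.56) or senescent B4 (-0.43), and was called by neither edgeR nor DESeq2. Fitted without the batch term PRKAR1A was no longer called, nor were ADCY3 and PDE3B in batch A alone.

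The Gi/o arm, through which ADRA2A, the somatostatin receptors and GRM4 signal, had 8 of 9 genes tested and 1 called higher. Its median log2 fold change was 0.29, beside 0.01 for all genes, of which 11.6% were called higher and 11.8% lower. GNAI1, an inhibitory G alpha subunit, rose from 221 ± 22.5 to 356 ± 29.8 (SD, n = 6 each; log2 fold change 0.69 ± 0.09, SE; adjusted p = 1.97e-05), though at 0.58 it was just under the fold limit with libraries scaled to the same total. KCNJ6, a GIRK channel subunit named after its values were seen, was at -0.67 in batch A and 0.69 in batch B. In the Gq and calcium arm, which serves FFAR1, 15 of 19 genes were tested, with 3 called higher, 2 lower and a median of 0.00. ITPR3, an inositol trisphosphate receptor that releases stored calcium, fell from 299 ± 166 to 65.5 ± 33.5 (-2.16 ± 0.17, adjusted p = 3.03e-08). DGKG, a kinase that removes diacylglycerol, also fell (-1.10 ± 0.17, adjusted p = 6.28e-05). The protein kinase C genes PRKCZ and PRKCE rose, by 1.27 ± 0.28 and 1.26 ± 0.26 on the log2 scale (adjusted p = 0.00139 and 9.99e-04). They were listed here as members of that kinase family, and whether Gq signals reach their products was not tested.

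Of 10 tested G beta and gamma subunits 2 were called higher and 1 lower (median log2 fold change -0.12), where 11.6% and 11.8% of all genes were. GNG7 rose from 10 reads over 6 non-senescent libraries to 227 over 6 senescent ones (log2 fold change 4.11, limma adjusted p = 2.25e-05). Most of the 10 reads were in non-senescent library B3. GNG2 fell from 172 ± 15.4 to 104 ± 6.12 (SD, n = 6 each; log2 fold change -0.72 ± 0.10, SE; limma adjusted p = 2.88e-05). GNG10 was at 0.66 ± 0.12, and under the fold limit without non-senescent A2 (0.54) or with libraries scaled to the same total (0.55). Of 13 tested RGS proteins, which switch G alpha subunits off, RGS3 fell from 59.9 ± 25.2 to 9.56 ± 2.14 (-2.46 ± 0.25, adjusted p = 6.90e-07) and RGS11 rose from 19.0 ± 11.9 to 34.5 ± 19.4 (0.83 ± 0.23, adjusted p = 0.00789), with a median of -0.24. The call on RGS11 was lost without the batch term and in batch A alone. Of 10 tested genes of receptor desensitisation, the arrestins moved in opposite directions. ARRB2 fell from 571 ± 68.3 to 233 ± 4.596 (-1.28 ± 0.09, adjusted p = 4.00e-09), and ARRB1 rose from 11.4 ± 5.35 to 27.7 ± 19.1 (1.07 ± 0.24, adjusted p = 0.00206), a call that was lost without the batch term.

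**Figure D4:**
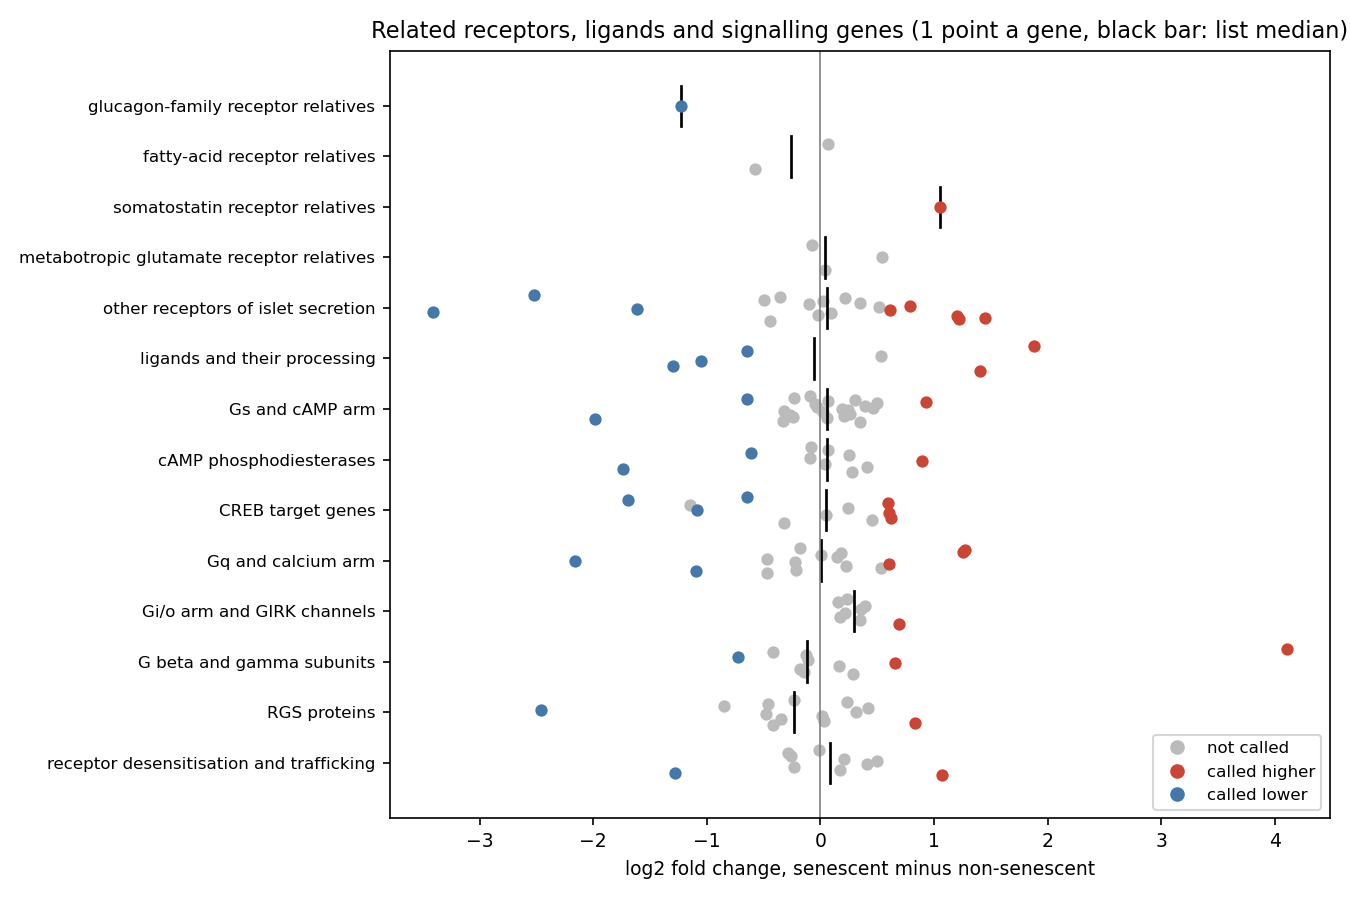
Log2 fold change (x axis, senescent minus non-senescent) of each tested gene in 14 lists of related receptors, ligands and signalling genes, with 1 point per gene, red for called higher, blue for called lower, grey for not called and a black bar for the list median. List medians of the arms downstream of the receptors lie between -0.24 (RGS proteins) and 0.29 (Gi/o arm), and the farthest points are GNG7 to the right and GALR2 to the left.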

How the data were processed

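RNA of 12 EndoC-βH3 libraries was profiled by CEL-Seq. Per the labels' processing notes and the study's methods, reads were trimmed with Cutadapt, quantified with Salmon 0.13.1 on GRCh38 and normalised with DESeq2. The values deposited by the authors are a normalised signal per gene and library (counts divided by size factors). How molecular identifiers were treated is not given in the sources used here. The table also holds the authors' own comparison (mean, fold change, error, statistic, p-values), which was not used. Dividing by the step of 1 read gave whole reads for 100% of 196021 values above 0, within 0.01, and hence the totals of 4672924 to 17106776 reads per library.

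log2(normalised count + 1) was fitted with limma 3.58.1 (R 4.3.3), with a mean-variance trend, for genes with a mean of at least 5, with group and batch as terms. Genes with an adjusted p under 0.1 and a change of over 1.5-fold were called. The fold change of low genes is understated by the added 1. The interaction of batch and group was tested in a further fit, at an adjusted p under 0.1. On simulated reads for these 13847 genes, the senescent against non-senescent fit recovered 86.5% of 200 genes changed 2-fold and 98.5% of 200 changed 4-fold. The simulation gave all genes the same dispersion and the same fold in both batches. Its settings are simpler than the data, so these shares do not give the recovery in the real comparison. Alternatives were other pseudocounts, filters and scalings, no batch term, a replicate block, each batch alone, each library left out, and edgeR 4.0.16 and DESeq2 1.42.0 on the recovered reads. Same-batch replicates differed by more than sampling noise.

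Text names each receptor, the up to 4 called genes of each other list with the largest change, relatives of the receptors' subfamilies, and the 3 genes most like each receptor. FFAR2, CASR, KCNJ6, JUNB, PER1 and the cell type markers were named after their values were seen. Receptors and lists were chosen with earlier results of these data known. Positions are from GENCODE 44 and promoters from RefSeq, matched by symbol for all 9 receptors.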

Additional observations from a re-analysis of the deposited data

Results flagged for a closer look

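The response differed between batches, by the interaction of batch and group, for 13 of 59 named genes tested (limma, adjusted p under 0.1), where 4.21% of all genes did. Many of the 59 were picked for their change in these same data or named after their values were seen. The share among them is therefore not comparable with that of all genes. For FFAR1 the log2 fold change was lower in batch B than in batch A, a difference of -0.52 (adjusted p = 0.0198), with opposite signs in the 2 batches. Opposite signs were also found for NR4A1 (difference -3.44, adjusted p = 0.00705; 1.21 in A and -2.23 in B), FOS (-2.13, adjusted p = 8.99e-07; 2.04 in A and -0.09 in B) and KCNJ6 (1.36, adjusted p = 9.59e-05; -0.67 in A and 0.69 in B). GCG (difference 1.59, adjusted p = 6.81e-06), SST (0.89, adjusted p = 7.47e-04) and PCSK1 (0.74, adjusted p = 0.0533) had negative values in both batches, farther from 0 in batch A, and UCN3 (-0.74, adjusted p = 0.0917) had them farther from 0 in batch B. PRKAR1A (0.42, adjusted p = 0.0402), TTR (0.89, adjusted p = 0.00425), LOXL4 (0.88, adjusted p = 0.0955) and RBP4 (0.63, adjusted p = 0.0894) had positive values in both, higher in batch B, and JUNB (-0.87, adjusted p = 0.0301) had them higher in batch A.

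Dixon's test singled out a library in 14 of 236 groups of libraries, and chance singles out about 1 group in 20. Among non-senescent libraries, B2 stood above the others of batch B for GRM4, at 26.2 against 14.6 to 16.6, and below all others for VIPR1, at 30.3 against 73.8 to 96.2. B3 stood out for PCSK1, at 964 against 754 to 787 in batch B, and for GNG7, at 11.7 against 0 in the rest of batch B and at most 0.795 in batch A. B1 was at 25.6 for NR4A1, against 17.5 to 18.6 in the rest of batch B. Among senescent libraries, B4 was at 0 for GPRC5B, against 11.5 to 13.9 in the other 5. It was at 1.25 for GALR2, which is a single read, against 0 in the rest of batch B. Senescent B2 was at 21.0 for GRM7, against 3.62 to 5.72, and at 42.0 for GRM8, against 17.2 to 25.6. Non-senescent B4 was at 7.45 for GRM7, against 2.75 to 3.97.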

How the results depend on the processing

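Of 228 alternative values computed for the counts and receptor results, 223 were scored as unchanged. For a fold change this meant the same direction and the same side of the threshold. For a count of genes it meant only a size near the main count, and single calls could still change. Counts of 3 and 5 receptors beside 4, and of 51 related and signalling genes in batch A alone beside 39, were thus scored as unchanged. The number of receptors called was 3 to 5 over the settings that left out no library, and 4 in each of the 12 fits without 1 library. Without the batch term 3 were called, as the GIPR change of 1.18 had an adjusted p of 0.153. SSTR3 stayed only just within the threshold there, at a limma adjusted p of 0.0966. In that fit 23 of the related and signalling genes were called in place of 39. In batch A alone SSTR3 was at 0.51, under the fold limit, and FFAR1 reversed to 0.29. With no fold limit SSTR2 joined the calls, making 5. The batch difference of SSTR2 turned from -1.01e-04 to 0.0443 with libraries scaled to the same total, a scaling that moved the median log2 fold change of all genes from 0.01 to -0.09. Leaving out 1 library at a time, the related and signalling genes called numbered 33 to 40. In these fits FFAR1 ran from -0.11 to -0.02 and SSTR2 from -0.26 to -0.18. Over all other settings the highest adjusted p was 0.0121 for ADRA2A and 7.88e-04 for GRM4. The causes of these shifts were not tested.

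With the replicate number as a block, 4 receptors and 36 related and signalling genes were called. Libraries of the same number did not deviate together (correlations of -0.05 to 0.02 across genes). For 0 of 6 numbers was the partner the closest, but A1 and A2, in groups of 2, share 1 correlation. This check cannot show whether samples of the same number were paired by design. Batch A, with 2 libraries per group, limits what can be said of its differences from batch B, and at 3 reads in total neither GLP1R nor GCGR could be compared.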

Other observations

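Of 13 known target genes of CREB, the factor that cAMP activates, 11 were tested, 3 called higher and 3 lower. Their median log2 fold change was 0.05 beside 0.01 for all genes, of which 11.6% were called higher and 11.8% lower. PPARGC1A, a coactivator of metabolic genes, fell from 110 to 31 reads over 6 libraries each (log2 fold change -1.70 ± 0.59, SE; limma adjusted p = 0.0311), a call lost in batch B alone and without the batch term. NR4A1, an immediate early gene, was at -1.09 (adjusted p = 0.0883) and lost its call without any 1 of the 8 libraries of batch B, at -0.75 to -1.11. It was called by neither edgeR, which gave -0.33, nor DESeq2, and the call was lost also with a pseudocount of 4, with the replicate block, with no filter and without the batch term. FOS, another, was at 0.62 (adjusted p = 0.0641), and at 0.43 to 0.45 without any 1 of the 4 libraries of batch A. JUNB and PER1, named after their values were seen, were both at 0.60. JUNB was likewise under the fold limit without any 1 of those 4 libraries (0.51 to 0.56). PER1, a clock gene, was so without non-senescent A1 or B4 or senescent A2, B3 or B4 (0.48 to 0.56).

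Among the 12 beta-cell markers 5 were called higher and 1 lower, where 11.6% and 11.8% of all genes were. INS rose by 2.23 ± 0.12 on the log2 scale (SE; limma adjusted p = 1.26e-10), and MAFA, a factor of mature beta cells, rose from 15.6 ± 8.70 to 79.9 ± 25.3 (SD, n = 6 each; 2.36 ± 0.25, adjusted p = 1.16e-06). IAPP and G6PC2 rose as well, by 1.87 and 1.11. UCN3 was at -0.63 ± 0.13 (adjusted p = 0.00113), under the fold limit without non-senescent B1 or B2 or senescent B2 (-0.55 to -0.58). Markers of other pancreatic cells were few: 1 of 5 acinar, 1 of 4 ductal, 2 of 5 mesenchymal, 1 of 4 endothelial and 2 of 4 immune markers passed the filter. CPA1, an acinar enzyme, rose from 43.6 ± 10.4 to 211 ± 46.9 (adjusted p = 5.70e-10), and KRT19, a ductal keratin, fell from 311 ± 57.2 to 125 ± 38.8 (adjusted p = 5.80e-08). PDGFRB, VWF and CD3E had 0 reads in all libraries.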
